A study of Mus musculus with 20 samples.

Results

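Expression of 6 related stress transcription factors, Atf4, Atf5, Ddit3, Atf3, Cebpb and Cebpg, was followed under the proteasome inhibitor bortezomib. They were taken from the whole table by gene symbol, with every probe of each: 10 probes of 45281, of which 9 were among the 22641 brighter probes that entered the tests. These 22641 probes stand for 11802 named genes, and each of the 6 genes had a probe among them. The genes were selected on prior knowledge of their signal in bortezomib-sensitive cultures, in these same arrays, at 8 to 24 h against 0 h. That response is therefore given here as values with no test. Each difference between resistant and sensitive cultures that contains those arrays was fitted, but the selection favours a lower resistant value. Its calls are printed as a description and not as a test.

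All 6 genes encode basic leucine zipper (bZIP) proteins, which bind DNA as dimers formed through a leucine zipper. When unfolded protein, lack of amino acids or other stress activates a kinase of the translation factor eIF2, most translation falls while the mRNA of Atf4 is translated more, and ATF4 then raises the transcription of further stress genes, among them the other bZIP genes described here. Plasma cells and myeloma cells secrete large amounts of antibody, and a block of the proteasome leaves them with protein that they cannot degrade.

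RNA came from 2 mouse multiple myeloma lines, 589bm and 595sp, from Bcl-XL/Myc double transgenic mice on a background of FVBN crossed with BL/6, and all groups share this genotype. Each line was present as a bortezomib-resistant and as a bortezomib-sensitive culture. The 4 cultures were measured after 2, 8, 16 and 24 h of 33 nM bortezomib and at 0 h, with 1 Illumina bead array each, 20 arrays in all. How the resistant cultures were derived is not given in the sources used here, and each of the 4 is a single culture.

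The 589bm resistant 2 h array was nearly blank, with 0.144% of its probes above 2 times its median (13.4% to 20.3% on each of the 19 others), and was left out. The 5 arrays titled as 595sp resistant carry characteristics that disagree with their titles on sensitivity and time, and results without them are given below. Each of the 19 arrays had its nearest array within its own culture. Of the 10 B and plasma cell markers with a probe, 4 lay above the 90th percentile of probes, and their mean log2 signal was 9.10 to 9.37 in resistant and 9.04 to 9.31 in sensitive arrays. None of the T cell, macrophage, erythroid or stromal markers lay above that percentile. Their mean log2 signal was 6.97 to 7.38 in resistant and 6.86 to 7.59 in sensitive arrays for T cells, 6.57 to 6.80 and 6.46 to 7.43 for macrophages, 6.28 to 6.77 and 6.44 to 7.38 for erythroid cells, and 6.35 to 6.89 and 6.23 to 6.56 for stroma. At 24 h 1 of 4 T cell markers passed as lower in resistant cultures. Sensitive cultures had 2 of 4 T cell and 1 of 3 macrophage markers lower. They also had 1 of 3 erythroid and 1 of 8 B and plasma cell markers lower. For 24 h the share of all probes passing as lower is not given here. Within 595sp the resistant culture had 2 of 4 T cell, 2 of 3 macrophage and 1 of 3 erythroid markers lower (9.06% of probes). It had 1 of 4 T cell and 1 of 8 B and plasma cell markers higher (9.58%). Within 589bm 1 of 4 T cell and 1 of 3 macrophage markers were lower (8.78%). There 3 of 8 B and plasma cell and 1 of 2 stromal markers were higher, and the share of all probes passing as higher within 589bm is not given here. The part of these markers in the results below was not tested. All arrays after 0 h are of treated cells, so an effect of the drug and one of time in culture cannot be told apart. In bulk RNA, fewer cells with a transcript and less of it per cell cannot be told apart either.

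All levels below are log2 signal after background correction and quantile normalization, so a step of 1 is a doubling, and levels of different probes are not compared with each other. A gene is given by its brightest probe. Changes come from one limma fit in which each culture was its own block and the 2 lines served as replicates, with p-values adjusted over all 22641 probes. The p-values measure the spread between these arrays, and the 0 h baseline of each culture is 1 array.

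**Figure D1:**
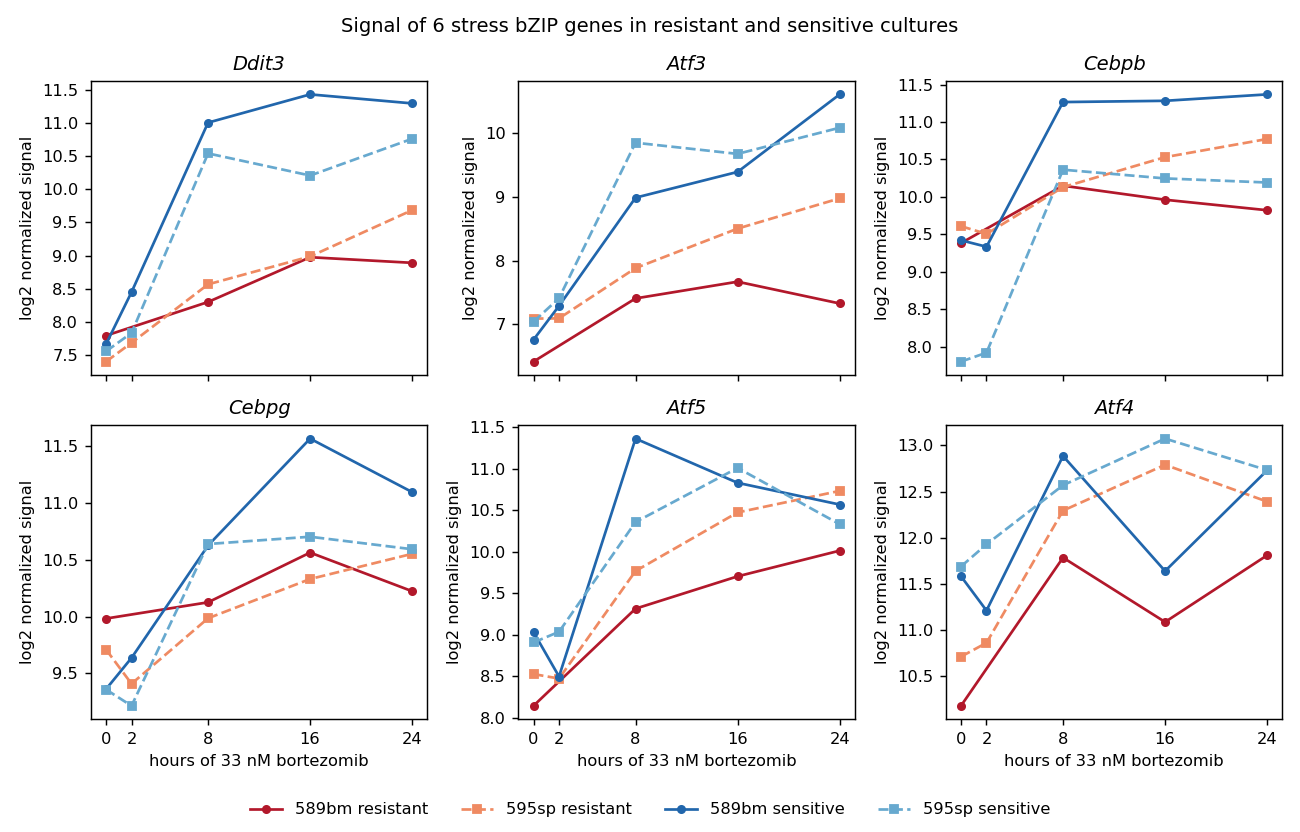
Log2 normalized signal of the 6 genes (vertical axes, each with its own range) against hours of 33 nM bortezomib (horizontal axis) in the 589bm and 595sp resistant (red) and sensitive (blue) cultures. Each point is 1 array, and the 589bm resistant culture has no point at 2 h. At 8 to 24 h the highest resistant and the lowest sensitive array were 9.69 and 10.21 for Ddit3, and 8.98 and 8.99 for Atf3. For Cebpg they were 10.56 and 10.59. The genes were selected on these sensitive arrays, and the share of all probes that separate in this way was not counted.

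In resistant cultures 4 of the 6 genes, Atf5, Ddit3, Atf4 and Atf3, rose under the drug and passed at both 16 and 24 h. Cebpb and Cebpg did not pass at either time. The genes and the tests were chosen with earlier results of these data known, so these calls cannot be taken as independent of that choice. At 16 h, 0.557% of all probes passed as higher, and at 24 h 0.614% did. At 8 h none of the 6 passed, 5 had an unadjusted p under 0.05 (9.18% of all probes did), and 0.172% of all probes passed in either direction. At 2 h, where only 595sp contributes, none of the 6 passed in a comparison in which 0% of all probes did and 2.21% had an unadjusted p under 0.05. None of the 6 had an unadjusted p under 0.05 there. Their fitted log2 changes, which draw on the 0 h arrays of both resistant cultures and on their later times, lay between -0.40 and 0.00, and the 595sp culture's own changes from 0 to 2 h lay between -0.30 and 0.28.

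Atf5, Ddit3, Atf4 and Atf3 kept a positive change at 24 h in 589bm alone, but without the 5 arrays titled as 595sp resistant 0 of the 6 passed at 16 or 24 h. Their 24 h log2 changes were then 1.85, 1.08, 1.62 and 0.86 (adjusted p = 0.22, 0.413, 0.389 and 0.598 in limma). No gene of the 6 passed at those times with all 20 arrays or with no culture as block either. With median scaling Atf5 (2.02, adjusted p = 0.00908 in limma) and Ddit3 (1.71, adjusted p = 0.0171) passed at 24 h and Atf4 and Atf3 did not, and at 16 h Atf5 alone passed. Atf3 also missed the threshold at both times with no background correction and with the authors' quantile-normalized values, as given below.

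Atf4 (Entrez gene 11911, on chromosome 15 from 80255184 to 80257545 in GRCm38.p6) encodes the factor that is made when eIF2 is phosphorylated and that stands at the head of this response. Its log2 signal in the resistant cultures at 0, 8, 16 and 24 h was 10.18, 11.79, 11.09 and 11.81 in 589bm. In 595sp it was 10.71, 10.86, 12.29, 12.79 and 12.39 at 0, 2, 8, 16 and 24 h. In the sensitive cultures it was 11.58, 11.21, 12.89, 11.64 and 12.73 at the 5 times in 589bm. The sensitive 595sp culture gave 11.69, 11.93, 12.57, 13.07 and 12.73.

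At 0 h both resistant cultures thus had less Atf4 signal than the sensitive culture of their line, by 1.40 in 589bm and 0.98 in 595sp on the log2 scale, on the brighter of 2 probes. On the dimmer one the 0 h difference was -0.01 in 589bm and 0.93 in 595sp, so the direction in 595sp turned. On the brighter probe the 0 h difference averaged -1.19 and did not pass in limma on these 4 arrays (unadjusted p = 0.00266, adjusted p = 0.343). The sensitive 0 h arrays are also the baseline of the response on which the genes were selected. Atf4 was the only one of the 6 genes with an unadjusted p under 0.05 at 0 h, where 0% of all probes passed and 8.41% had such a p. The resistant cultures rose by 1.49 at 16 h (SE 0.33, adjusted p = 0.0352) and by 1.65 at 24 h (adjusted p = 0.0174) in limma, and had 1.59 at 8 h (adjusted p = 0.0626). The sensitive cultures had changes of 1.09, 0.72 and 1.10 at 8, 16 and 24 h (SE 0.33), and the 589bm sensitive culture at 16 h was only 0.06 above its 0 h array. On the brighter probe resistant Atf4 lay below sensitive Atf4 in 6 of 6 line and time pairs at 8 to 24 h, by 0.27 to 1.10 on the log2 scale. On the dimmer probe this held in 589bm only. There the 595sp resistant culture was higher, with 10.35, 11.01 and 10.89 beside 8.03, 8.66 and 7.91 at 8, 16 and 24 h. The genes were selected on these sensitive arrays. The call at 24 h was lost without any one of the 4 resistant arrays at 0 or 24 h (log2 changes of 1.45 to 1.85, adjusted p = 0.122 to 0.243 in limma). At 16 h it was lost without any one of the 4 resistant arrays at 0 or 16 h, either resistant 8 h array or the 595sp resistant 24 h array, with log2 changes of 0.91 to 2.07.

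**Figure D2:**
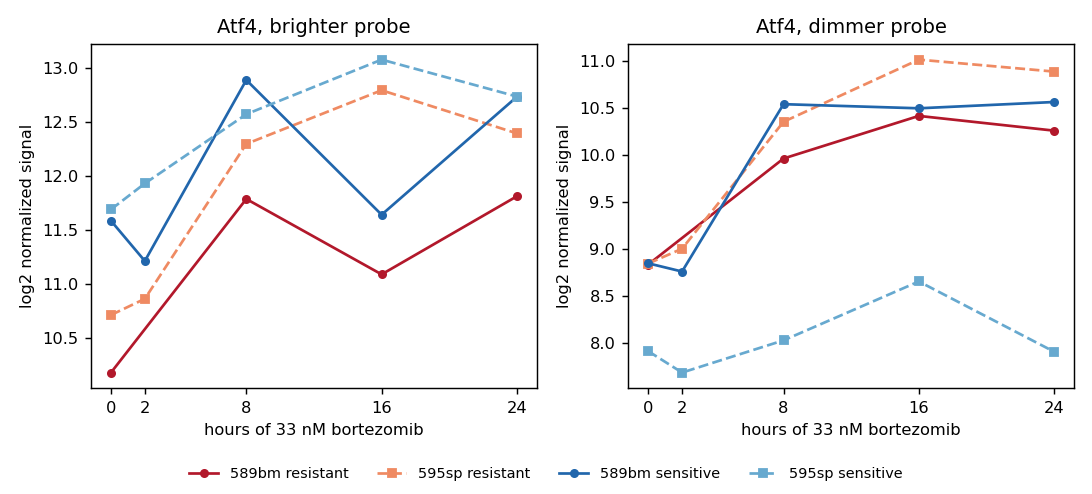
Log2 normalized signal of the brighter and the dimmer Atf4 probe (vertical axes, each with its own range) against hours of 33 nM bortezomib (horizontal axis), 1 point per array in the resistant (red) and sensitive (blue) cultures. On the dimmer probe the 595sp sensitive culture stays between 7.69 and 8.66, below the other 3 cultures at every time.

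A second, dimmer Atf4 probe gave a different picture in 1 culture. The 595sp resistant culture read 8.85, 9.01, 10.35, 11.01 and 10.89 at the 5 times, while the 595sp sensitive culture read 7.92, 7.69, 8.03, 8.66 and 7.91. In 589bm it read 8.84, 9.96, 10.42 and 10.26 at 0, 8, 16 and 24 h in the resistant culture. The 589bm sensitive culture read 8.85, 8.76, 10.54, 10.50 and 10.56. In the other 3 cultures each treated array from 8 h lay above the 0 h array on both probes, and the near flat course was that of the 595sp sensitive culture. Within 595sp the 2 probes went opposite ways between the resistant and the sensitive culture, at -0.59 for the brighter and 1.98 for the dimmer over the 5 times. The dimmer probe passed in the resistant cultures at 16 h (1.87, adjusted p = 0.00812) and at 24 h (1.73, adjusted p = 0.0129). The probe sequences were not used here, and the cause of the disagreement was not tested.

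Atf5 (Entrez gene 107503, chromosome 7 from 44812256 to 44816658), whose mRNA is under the same kind of translational control as that of Atf4 and which is itself a known ATF4 target, had the largest rise of the 6 genes in resistant cultures at 16 and 24 h. Its log2 signal in resistant 589bm was 8.15, 9.31, 9.70 and 10.01 at 0, 8, 16 and 24 h, and in resistant 595sp it was 8.53, 8.47, 9.77, 10.47 and 10.73 at the 5 times. Sensitive 589bm gave 9.03, 8.50, 11.36, 10.83 and 10.57, and sensitive 595sp gave 8.91, 9.04, 10.36, 11.01 and 10.33. In both resistant cultures the signal was higher at each later time from 8 h on, while in sensitive cultures the highest array was at 8 h in 589bm and at 16 h in 595sp.

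Atf5 rose in resistant cultures by a log2 of 1.75 at 16 h (SE 0.25, adjusted p = 0.00397 in limma) and of 2.04 at 24 h (adjusted p = 8e-04), which is 4.10-fold. At 8 h it had 1.20 (adjusted p = 0.0799). The call at 24 h was the only one of the 8 in resistant cultures that held without any single array, in 19 of 19 fits. The call at 16 h was lost without the 589bm resistant 16 h, the 595sp resistant 0 h or the 595sp resistant 16 h array, with log2 changes of 1.88, 1.62 and 1.62 and adjusted p = 0.0522, 0.0688 and 0.0566 in limma. The sensitive cultures had changes of 1.89, 1.95 and 1.48 at 8, 16 and 24 h (SE 0.25). At 24 h the resistant 595sp array was above the sensitive one by 0.40, and in the other 5 of 6 treated pairs from 8 h on the resistant array was below. These pairs also hold the sensitive arrays on which the genes were selected.

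Ddit3 (Entrez gene 13198, chromosome 10 from 127290793 to 127296291) encodes CHOP, a C/EBP-like partner that cannot bind the usual C/EBP sites and that is known to promote cell death under long stress. Its promoter is shown because it held the only match among the 6 genes to the AP-1 motif. The 250 bases before its start, chr10:127290543-127290792 on the plus strand of GRCm38.p6 from RefSeq, are printed 5′ to 3′ with the match, to TGANTCA, in capitals.
Ddit3: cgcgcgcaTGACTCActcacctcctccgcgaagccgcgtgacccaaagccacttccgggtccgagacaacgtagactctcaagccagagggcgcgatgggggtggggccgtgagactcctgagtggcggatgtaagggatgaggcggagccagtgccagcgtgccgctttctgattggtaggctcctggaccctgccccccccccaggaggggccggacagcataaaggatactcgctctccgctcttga
The match lies at positions -242 to -236 from the start, and 7.81% of 32851 mouse promoter windows, each of 300 bases (the 250 before the start and 50 after it), hold that motif on either strand.

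Ddit3 read 7.80, 8.30, 8.98 and 8.89 at 0, 8, 16 and 24 h in resistant 589bm. In resistant 595sp it read 7.41, 7.69, 8.57, 8.99 and 9.69 at the 5 times. The sensitive cultures read 7.67, 8.45, 11.00, 11.43 and 11.29 in 589bm, and 7.56, 7.84, 10.54, 10.21 and 10.76 in 595sp. The 4 cultures lay close together at 0 h, where resistant minus sensitive was 0.13 in 589bm and -0.15 in 595sp. From 8 h the highest resistant array, 9.69, lay below the lowest sensitive one, 10.21. The genes were selected on those sensitive arrays, and the share of all probes that separate in this way was not counted.

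The resistant cultures rose by 1.38 at 16 h (SE 0.26, adjusted p = 0.0136 in limma) and by 1.69 at 24 h (adjusted p = 0.00375), which is 3.22-fold. At 8 h they had 0.83 (adjusted p = 0.268). The rise at 24 h was 1.10 in 589bm and 2.28 in 595sp. Without the 595sp resistant 0 h or 24 h array the 24 h log2 change was 1.31 or 1.27 and missed the threshold (adjusted p = 0.108 and 0.134 in limma). The 16 h call was lost without the 589bm resistant 16 h, the 595sp resistant 0 h or the 595sp resistant 16 h array (1.29, 1.01 and 1.48). The sensitive cultures had changes of 3.16, 3.20 and 3.41 at 8, 16 and 24 h (SE 0.26), so at 8 h they were already near their later values. A second Ddit3 probe had the same signs, with 1.17 and 1.51 at 16 and 24 h in resistant cultures (adjusted p = 0.0116 and 0.00225 in limma).

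Atf3 (Entrez gene 11910, chromosome 1 from 191170296 to 191183333) is an early-response repressor and activator that both ATF4 and other stress pathways induce. Its promoter holds the only match among the 6 genes to the core of the C/EBP-ATF response element, TGATGNAA, the composite site through which ATF4 and C/EBP proteins act. The 250 bases before the start, chr1:191183334-191183583 on the minus strand of GRCm38.p6 from RefSeq, are printed 5′ to 3′. The first stretch of capitals is that match, read on the opposite strand, and the second is TTACGTCA, a CRE-like sequence searched for only after the promoter had been read.
Atf3: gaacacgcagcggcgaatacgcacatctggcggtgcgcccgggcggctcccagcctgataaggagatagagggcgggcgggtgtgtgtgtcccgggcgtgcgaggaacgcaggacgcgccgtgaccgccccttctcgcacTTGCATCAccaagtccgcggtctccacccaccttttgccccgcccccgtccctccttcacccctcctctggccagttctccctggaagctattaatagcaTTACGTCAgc
They lie at positions -110 to -103 and -10 to -3 from the start. All motif searches were for exact matches to a pattern, so a site that departs from it was not counted. A search with no match, such as that for the ER stress element, therefore does not show that a promoter lacks the element. This applies to the Ddit3 promoter printed above as well. Of all 300-base promoter windows, 3.97% hold TGATGNAA and 0.499% hold TTACGTCA. In the windows of the 6 genes, taken from 250 bases before to 50 after each start, the searches of both strands for TGACGTCA (the CRE, in 1.79% of windows), GAANNTTC (the heat shock element core, in 7.86%) and the ER stress element ERSE (in 0.119%) found no match. TTNNGNAA (a C/EBP pattern, in 40.7%) matched at a pair of places in the second window of Atf5 and nowhere else, and the windows of Atf4, Cebpb and Cebpg held no match to any motif searched.

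Atf3 read 6.41, 7.41, 7.67 and 7.33 at 0, 8, 16 and 24 h in resistant 589bm, and 7.09, 7.09, 7.88, 8.50 and 8.98 at the 5 times in resistant 595sp. In sensitive 589bm it read 6.76, 7.29, 8.99, 9.40 and 10.61, and in sensitive 595sp 7.04, 7.41, 9.85, 9.68 and 10.09. From 8 h the highest resistant array was at 8.98, beside 8.99 for the lowest sensitive one. As for Ddit3, the genes were selected on those sensitive arrays. The widest gap was that of 589bm at 24 h, where resistant was below sensitive by 3.29 on the log2 scale.

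In resistant cultures Atf3 rose by 1.34 at 16 h (SE 0.28, adjusted p = 0.0281) and by 1.40 at 24 h (adjusted p = 0.0209) in limma, and had 0.89 at 8 h (adjusted p = 0.285). At 24 h the 2 lines stood apart, with 0.91 in 589bm and 1.89 in 595sp. Without the 595sp resistant 24 h array the 24 h log2 change was 0.90 (adjusted p = 0.358), without the 595sp resistant 0 h array 1.24 (adjusted p = 0.23) and without the 589bm resistant 0 h array 1.57 (adjusted p = 0.138). At 16 h each of the 4 resistant arrays at 0 and 16 h was needed for the call (log2 changes of 1.17 to 1.50 without one of them). Both calls were also lost with no background correction (0.88 at 16 h and 0.97 at 24 h, adjusted p = 0.0867 and 0.0637 in limma) and with the authors' quantile-normalized values (0.88 and 0.96, adjusted p = 0.0884 and 0.0658 in limma). The sensitive cultures had 2.52, 2.64 and 3.45 at 8, 16 and 24 h (SE 0.28).

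Cebpb (Entrez gene 12608, chromosome 2 from 167688915 to 167690432) encodes C/EBP beta, a factor of inflammation and differentiation that also pairs with ATF4 and CHOP. It read 9.38, 10.15, 9.96 and 9.82 at 0, 8, 16 and 24 h in resistant 589bm, and 9.61, 9.51, 10.13, 10.53 and 10.77 at the 5 times in resistant 595sp. It read 9.42, 9.33, 11.27, 11.28 and 11.37 in sensitive 589bm, and 7.80, 7.92, 10.36, 10.25 and 10.19 in sensitive 595sp. The low start of the sensitive 595sp culture set it apart from the other 3 cultures. Resistant minus sensitive at 0 h was 1.81 in 595sp and -0.04 in 589bm, and the mean of 0.89 did not pass (adjusted p = 0.61 in limma).

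Resistant Cebpb had changes of 0.64, 0.75 and 0.80 at 8, 16 and 24 h (SE 0.22, adjusted p = 0.329, 0.113 and 0.0955 in limma). Sensitive Cebpb had 2.21, 2.16 and 2.17 (SE 0.22), nearly the same at the 3 times. In 589bm resistant Cebpb was below sensitive Cebpb at 8, 16 and 24 h, by 1.12, 1.32 and 1.55, whereas in 595sp the differences were -0.23, 0.28 and 0.58. All of these differences subtract sensitive arrays on which the genes were selected.

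Cebpg (Entrez gene 12611, chromosome 7 from 35046422 to 35056566) encodes C/EBP gamma, a short partner of ATF4 that lacks a strong activation domain of its own. It read 9.98, 10.13, 10.56 and 10.22 at 0, 8, 16 and 24 h in resistant 589bm, and 9.71, 9.41, 9.99, 10.33 and 10.55 at the 5 times in resistant 595sp. It read 9.36, 9.64, 10.63, 11.57 and 11.10 in sensitive 589bm, and 9.36, 9.21, 10.64, 10.70 and 10.59 in sensitive 595sp. At 0 h the resistant cultures lay higher, by 0.62 and 0.35, and from 8 h they lay lower in 6 of 6 pairs, by as little as 0.04 in 595sp at 24 h. Those pairs hold the sensitive arrays on which the genes were selected. The share of all probes lower in every pair was not counted.

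Resistant Cebpg had changes of 0.21, 0.60 and 0.54 at 8, 16 and 24 h (SE 0.21, adjusted p = 0.818, 0.202 and 0.278 in limma), and sensitive Cebpg had 1.27, 1.78 and 1.49 (SE 0.21). These values rest on 1 of 3 Cebpg probes. A second probe stayed between 6.37 and 6.98 in all 19 arrays and had -0.07 in resistant cultures and 0.18 in sensitive cultures at 24 h. On it 589bm at 8 h read 6.90 in the resistant and 6.60 in the sensitive culture. In the other pairs from 8 h the resistant culture was lower. The last probe was too dim to be tested.

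**Figure D3:**
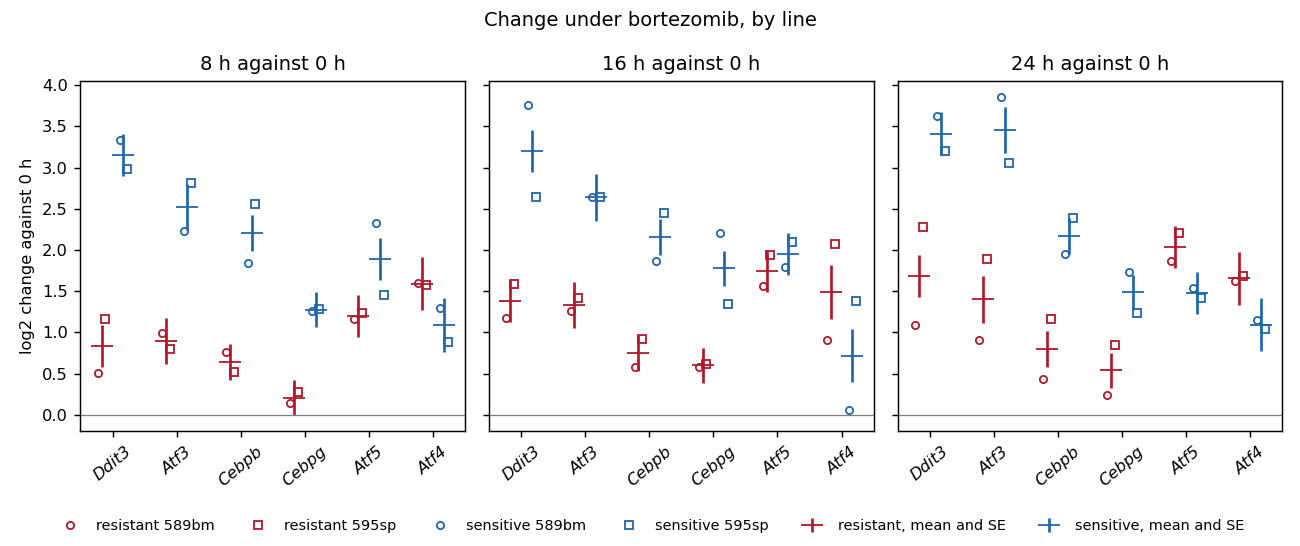
Log2 change against the 0 h array of the same culture (vertical axis) for the 6 genes (horizontal axis) at 8, 16 and 24 h. Open symbols are single lines, and crosses with bars are the fitted mean and its SE, resistant (red) left of sensitive (blue). Ddit3 and Atf3 at 24 h average 1.69 and 1.40 in resistant and 3.41 and 3.45 in sensitive cultures, while Atf4 and Atf5 have the higher resistant mean at 24 h.

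The difference of responses, resistant minus sensitive, sets the change in resistant cultures against that in sensitive ones, as an interaction in the same fit. It subtracts the sensitive responses on which the 6 genes were selected, so a gene with a large sensitive rise is drawn towards a negative difference. For these genes it is therefore a description, and nothing is read from the counts of calls. At 8, 16 and 24 h 0 of the 6 passed in limma, and 4 of the 6, Ddit3, Cebpb, Atf3 and Cebpg, had an unadjusted p under 0.05 at each time. Of all probes 0%, 0.0353% and 0.0265% passed at these times, and 5.43%, 8.66% and 11% had an unadjusted p under 0.05. Averaged over 8, 16 and 24 h, a contrast chosen after the single times had been seen, 2 of the 6 genes, Ddit3 and Cebpb, passed as lower, and 0.0663% of all probes did.

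Ddit3 had a mean difference of -1.96 (SE 0.29), which is -2.65 in 589bm and -1.27 in 595sp. Without the 589bm resistant or the 589bm sensitive 0 h array it was -1.58 or -1.66 and missed the threshold, and the second Ddit3 probe missed it at -1.29. Atf3 had -1.66 (SE 0.32), with -1.86 in 589bm and -1.47 in 595sp. Cebpb had -1.44 (SE 0.25), -1.29 in 589bm and -1.60 in 595sp. In 595sp that value rests on the low 0 h level of the sensitive culture, since the treated levels of both 595sp cultures lay within 0.58 of each other. Cebpb missed the threshold in 11 of 19 fits that left one out, with differences of -1.69 to -1.20 over all 19. These were the fits without any one of the 4 arrays at 0 h, without the resistant 16 h array of either line, without the sensitive 24 h array of either line, and without the 589bm resistant 24 h, 595sp resistant 8 h or 595sp sensitive 8 h array. Cebpg had -1.06 (SE 0.25), below 0 in both lines. With median scaling, with all 20 arrays, with no culture as block or without the 5 arrays titled as 595sp resistant, Ddit3 had -2.30 to -1.64 and Cebpb -1.57 to -1.14, and neither passed.

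Atf5 and Atf4 had higher mean differences than the other genes, and only that of Atf4 was positive. Atf5 had a mean difference of -0.11 (SE 0.29), with -0.35 in 589bm and 0.14 in 595sp. Atf4 had 0.61 (SE 0.38), with 0.55 in 589bm and 0.68 in 595sp, while its dimmer probe had -0.31 in 589bm and 1.62 in 595sp. Neither value shows that resistant and sensitive cultures responded alike in these 2 genes.

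**Figure D4:**
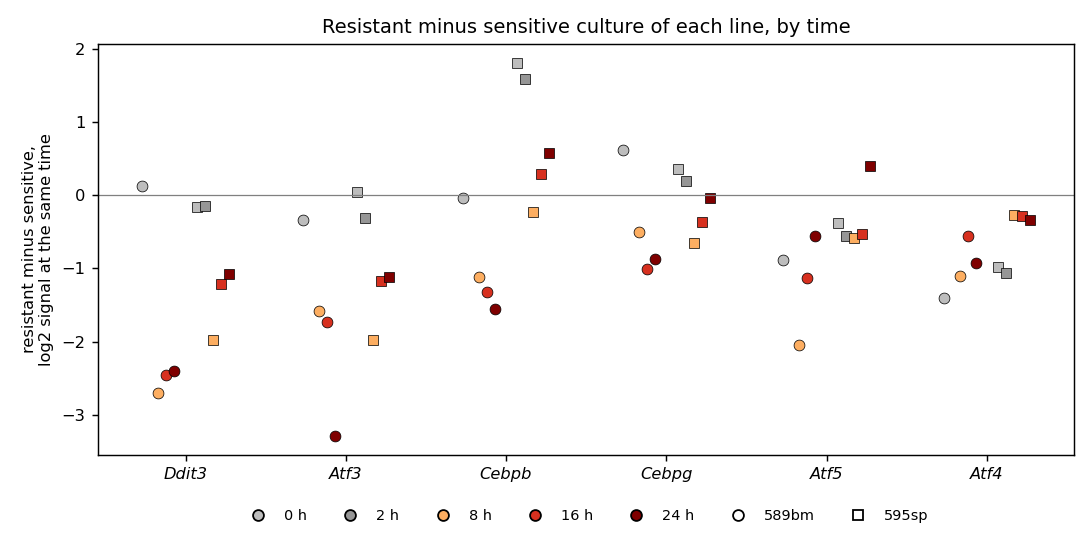
Resistant minus sensitive log2 signal of the same line at the same time (vertical axis) for the 6 genes (horizontal axis), circles for 589bm and squares for 595sp, coloured by hours of bortezomib. From 8 h Ddit3 lies between -2.70 and -1.07 and Atf3 between -3.29 and -1.11, while both Atf4 points at 0 h, -1.40 and -0.98, are below 0 before the drug. Points from 8 h subtract the sensitive arrays on which the genes were selected.

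The resistant and sensitive cultures of each line were also compared over their shared times, 0 h included. The spread in each of these fits is over the times of 1 pair of cultures and not between cultures. A call therefore holds for that pair, and a difference between single cultures and one of resistance cannot be told apart. The sensitive arrays at 8 to 24 h, on which the genes were selected, are part of these values, so they too are a description, and nothing is read from the counts of calls. In 589bm, 5 of the 6 genes passed as lower in the resistant culture, and 8.78% of all probes did. The log2 differences were -1.86 for Ddit3, -1.73 for Atf3, -1.15 for Atf5, -1.01 for Cebpb, -0.99 for Atf4 and -0.44 for Cebpg. The 5 passed without any single array, but each of those fits still holds sensitive arrays on which the genes were selected. Cebpg passed at -0.79 without either 589bm 0 h array, the resistant or the sensitive one. The dimmer Atf4 probe had -0.24 and did not pass (adjusted p = 0.27 in limma).

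In 595sp, 3 of the 6 genes passed as lower and 1 as higher in the resistant culture, and 9.06% of all probes passed as lower and 9.58% as higher. Ddit3 had -0.91, Atf3 -0.90 and Atf4 -0.59, the last with the opposite sign on its other probe, as given above. Cebpb was higher by 0.81, with pair values of 1.81 at 0 h and 1.59 at 2 h, and Atf5 and Cebpg had -0.33 and -0.10. Ddit3 missed the threshold without the 16 h or 24 h array of either 595sp culture (-0.88 to -0.83), and Atf3 without any one of the 595sp arrays at 8, 16 or 24 h (-0.86 to -0.64). Cebpb missed it without the 0, 2, 16 or 24 h array of either 595sp culture (0.55 to 0.94), and Atf5 passed without the resistant or the sensitive 24 h array (-0.52 each). Whether the 2 lines differed in these contrasts was not tested.

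From 8 to 24 h none of the 6 genes passed. The values of sensitive cultures in this paragraph, those between lines included, come from the arrays on which the genes were selected. They are a description and not a test. In resistant cultures the changes from 8 h were 0.85 for Ddit3 (adjusted p = 0.377) and 0.83 for Atf5 (adjusted p = 0.389), and in sensitive cultures Atf3 had the largest, 0.93 (adjusted p = 0.205), in limma. In the sensitive Atf3 value the lines stood apart, at 1.62 in 589bm and 0.24 in 595sp. Of all probes 0.00883% passed in resistant and 0.0928% in sensitive cultures, and 7.91% and 11.6% had an unadjusted p under 0.05. The lines were set against each other directly as 589bm minus 595sp, late times (8, 16 and 24 h) against early ones (0 and 2 h). On their brightest probes no gene of the 6 passed or had an unadjusted p under 0.05, with values of -0.61 to -0.29 in resistant and -0.48 to 0.56 in sensitive cultures. The dimmer Atf4 probe had 1.33 in sensitive cultures (unadjusted p = 0.000514, adjusted p = 0.264 in limma), the near flat 595sp course described above, and did not pass. No probe passed at all (0%), and 5.52% and 6.21% had an unadjusted p under 0.05.

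The course over arrays was shared most by Ddit3, Atf3, Cebpb and Cebpg. After each culture's mean was subtracted, the highest Pearson correlation over the 19 arrays among the 6 genes was that of Ddit3 with Atf3, 0.963, and the lowest was that of Atf4 with Cebpg, 0.588. The points share their arrays and the normalization. They include the treated sensitive arrays on which the genes were selected, and that selection favours high values among these genes. The correlations, those with the nearest genes included, are therefore a description and not a test. The correlation between genes at large is not given here. Over all other genes, the courses most like that of Ddit3 were those of Nupr1 (0.984), a stress-induced nuclear protein, Mib2 (0.979), a ubiquitin ligase, and Trib3 (0.976), a pseudokinase. For Atf3 they were Gadd45a (0.986), a growth arrest gene, Dnajb2 (0.983), a co-chaperone, and Slc25a38 (0.974), a mitochondrial carrier.

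Cebpb was nearest to Niban1 (0.98), Eif2b4 (0.976), a subunit of the eIF2 exchange factor, and Mib2 (0.973). Cebpg was nearest to Ccdc174 (0.983), Rtn3 (0.975) and Chic2 (0.972), and Atf5 to Hax1 (0.968), Usp3 (0.941) and Nupr1 (0.938). Atf4 was nearest to Phf10 (0.952), Psmb6 (0.933), a proteasome subunit, and Glipr1 (0.928).

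The remaining bZIP genes were taken by family. These lists were chosen with earlier results of these data known, so their counts are a description. In resistant cultures at 24 h, none of 13 further ATF and CREB genes tested, 9 AP-1 genes or 3 PAR and Nfil3 genes passed, nor did Cebpd, the 1 further C/EBP gene tested. In the Maf, CNC and Bach family 1 of 7 passed as higher. This was Nfe2l1, which encodes NRF1, the activator of proteasome genes, at 0.92 (adjusted p = 0.0433 in limma). The family medians of the ATF and CREB, AP-1 and Maf genes were 0.12, 0.15 and 0.29, beside 0.01 over all genes tested. The 6 stress genes had a median of 1.53 and ranged from 0.54 to 2.04 in the same comparison. Nfe2l1, Bach1, Creb3 and Xbp1, at 0.92, 0.78, 0.78 and 0.63, lay within that range.

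In sensitive cultures at 24 h, where 6.37% of all probes passed as higher, 1 of 13, 3 of 9 and 3 of 7 genes of these families did. The ATF and CREB gene was Creb3, at 0.78 in resistant cultures (adjusted p = 0.118 in limma) and 1.36 in sensitive cultures (adjusted p = 0.000836). The AP-1 genes were Jun, at 0.46 in resistant and 1.26 in sensitive cultures, Jdp2, at 0.46 and 1.03, and Fosl2, at 0.19 and 0.99. The Maf family genes were Nfe2l1, at 0.92 and 0.99, Mafg, at 0.40 and 1.77, and Bach1, at 0.78 and 1.72. Fosl2, Mafg and Bach1 are named because they passed, after their values were seen. Xbp1, the other well known stress bZIP gene, had 0.63 in resistant and 0.70 in sensitive cultures and passed in neither. Dbp, a clock output gene, had -0.51 in resistant cultures (adjusted p = 0.19 in limma) and was the 1 bZIP gene of these lists that fell in sensitive cultures, at -1.34 (adjusted p = 9.21e-05). In resistant cultures it fell at 8 h, at -1.32 (adjusted p = 0.0029).

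**Figure D5:**
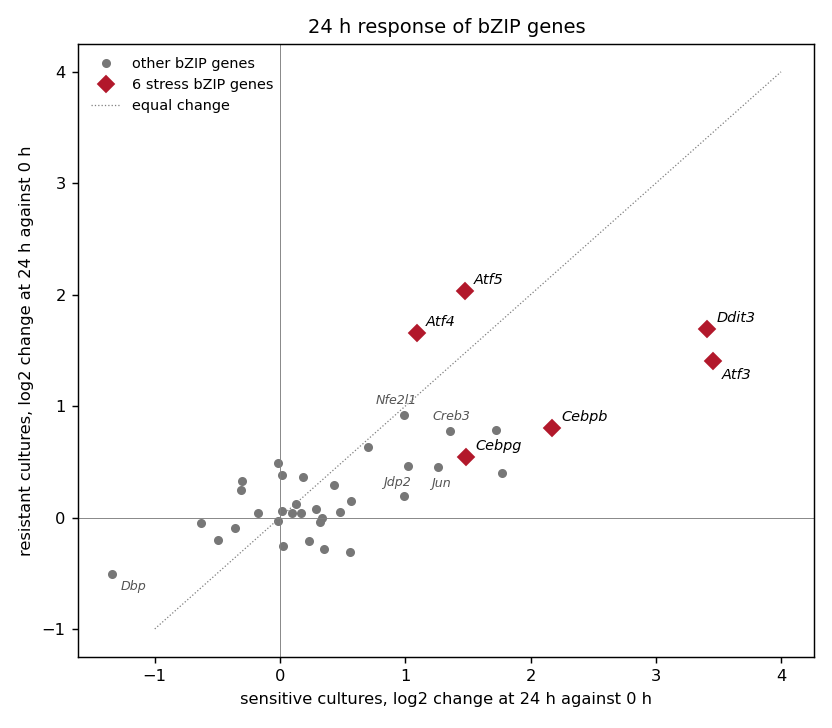
Log2 change at 24 h against 0 h in resistant cultures (vertical axis) and in sensitive cultures (horizontal axis) for the 6 stress bZIP genes (red diamonds) and the other bZIP genes tested (grey). The dotted line marks equal change, and Atf5 (2.04 and 1.48) and Atf4 (1.65 and 1.10) are above it while Ddit3, Atf3, Cebpb and Cebpg are below.

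Upstream of ATF4, 1 of 16 genes for eIF2, its kinases and their regulators passed as higher in resistant cultures at 24 h, where 0.614% of all probes did, and 5 of 16 in sensitive cultures, where 6.37% did. The 1 was Impact, an inhibitor of the eIF2 kinase GCN2, at 1.27 in resistant (adjusted p = 0.00394 in limma) and 2.29 in sensitive cultures. The other 4 in sensitive cultures, named after their values were seen, were Ppp1r15a, the stress-induced subunit that directs the eIF2 phosphatase, with 0.69 in resistant and 2.27 in sensitive cultures, and Eif2b2, Eif2b4 and Eif2s2, with 1.07, 0.88 and 0.62 in sensitive cultures. The list's medians were 0.18 and 0.36. Downstream, 21 known targets of ATF4 and CHOP outside the 6 genes were tested. Both lists were chosen with earlier results of these data known, so their counts are a description. The sensitive counts also come from the arrays on which the 6 genes were selected. At 8 h 3, Chac1, Trib3 and Nupr1 with 2.24, 1.95 and 1.31, passed as higher in resistant cultures, where 0.115% of all probes did, and 12 in sensitive cultures, where 1.18% did. At 24 h 8 passed as higher in resistant cultures, where 0.614% of all probes did, and 8 in sensitive cultures, where 6.37% did, and none as lower in either.

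The list's median at 24 h was 0.75 in resistant and 0.80 in sensitive cultures, against 0.01 and 0.02 over all genes tested. Trib3 rose by 2.70 in resistant cultures (adjusted p = 0.000673), Chac1, which breaks down glutathione, by 2.62 (adjusted p = 0.00375), Nupr1 by 2.20 (adjusted p = 0.000409) and Gadd45a by 1.17 (adjusted p = 0.00895) in limma. In sensitive cultures the same 4 genes had 4.09, 2.74, 3.20 and 2.996. For the difference of responses averaged over 8, 16 and 24 h, 2 of the 21 passed as lower, where 0.0663% of all probes did, Gadd45a at -1.43 and Ppp1r15a, which is also in the eIF2 list, at -1.41, and the median was -0.26, beside -0.02 over all genes tested.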

How the data were processed

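Signal was measured on Illumina mouse bead arrays, 1 colour. The deposited table, not normalized, holds intensity (AVG_Signal) per the file headers, with no detection p-values; the authors' deposited matrix of the same arrays, also intensity, is quantile-normalized, with a column median of 177 and a rank correlation of 1 with the raw columns, and was an alternative. The software is not given in the sources used here.

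With limma 3.58.1 in R 4.3.3, normexp correction (offset 50) was followed by log2 and by quantile normalization over 19 arrays. The brighter 50% of probes were kept. Symbols came from the platform annotation (34885 probes with 1 symbol, 18 with several, 10378 with none, 34807 updated through Entrez numbers), and all 10 probes of the 6 genes kept their symbol. Genes named outside the 6 were, for each list, up to 4 that passed with the largest change in resistant cultures at 24 h, or up to 2 where none passed, and the 3 nearest in course. Fits used lmFit and eBayes with an intensity trend, Benjamini-Hochberg adjustment and a threshold of 0.05. The model had culture as a block and sensitivity by time (7 residual degrees of freedom). The 0 h comparison used 4 arrays with line as a term, and comparisons within a line used time as a term. The fits were run on simulated data with independent noise and no differences between cultures beyond those put in. That run cannot show how well the calls hold in these arrays. Arrays were grouped by title. The genes, the lists and the tests were chosen with earlier results of these data known. The number of arrays limits the precision.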

Additional observations from a re-analysis of the deposited data

Results flagged for a closer look

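Ddit3 and Cebpb passed in the difference of responses, resistant minus sensitive, averaged over 8, 16 and 24 h. Ddit3 had a mean difference of -1.96 on the log2 scale, below 0 in both lines. Cebpb had -1.44, also below 0 in both lines, and in 595sp its 0 h level was 9.61 in the resistant culture, against 7.80 in the sensitive one. The genes were selected on the sensitive responses that this difference subtracts, and the contrast was chosen after the single times had been seen, so both values are a description and not a test. At single times neither gene passed.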

How the results depend on the processing

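Over all alternatives and genes of the 6, 2031 of 2239 values, tested and untested, counted as unchanged. A tested value did so if it kept its direction and its side of the threshold. An untested one did so if it moved by less than the SD between the 2 lines, and 57 moved by more. Of the tested values 107 lost a call, 32 gained one and 12 changed sign. Only values called in the main fit could lose a call, so the 107 are not to be read as a share of all 2239. The number of the 6 members called in resistant cultures was 4 at 16 h and 4 at 24 h. It was 1 and 2 with median scaling in place of quantile normalization, 0 and 0 with all 20 arrays (the nearly blank one included), and 0 and 0 without the 5 arrays titled as 595sp resistant. With no culture as replicate block, which leaves the differences between cultures in the residual spread, 0 and 0 members passed, and the mean difference of responses, 2 with the block, had 0. The count for the mean difference was also 0 with median scaling, with all 20 arrays and without the 5 arrays, and 1 with the brighter 25% of probes or when every probe had to pass. At 8 h 1 passed in resistant cultures with no filter, and 1 in the difference of responses with no filter or with no background correction. The 5 calls within 589bm became 0 with all 20 arrays. Probes called at 24 h in resistant cultures were 239, and 31 with median scaling, 2 without the 5 arrays, 1 with no block and 0 with all 20 arrays.

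Leaving out each array in turn gave 0 to 2 members in resistant cultures at 8 h, 0 to 4 at 16 h and 1 to 4 at 24 h, 0 to 1 for each difference at a single time, 0 to 4 for the mean difference, 5 to 6 within 589bm and 1 to 4 within 595sp. Every such fit at 2 h, at 0 h, from 8 to 24 h and between lines gave 0.

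Signs turned on the other probe for Cebpg (-0.068 in resistant cultures at 24 h, 0.17 for the difference at 8 h, -0.10 at 0 h) and Atf4 (0.46 at 0 h, 1.98 within 595sp). Median scaling turned Atf5 (0.28 for the difference at 16 h, 0.21 for the mean difference) and Cebpg within 595sp (0.092). It also moved the median of all genes to 0.23, 0.14 and 0.14 in the difference at 16 h, at 24 h and on average, and to -0.17 and -0.11 in sensitive cultures at 16 and 24 h. Leaving out an array turned Cebpg within 595sp (-0.22 to 0.034) and the mean difference of Atf5 (-0.29 to 0.075). The causes were not tested. Signal over background and 1 array per culture and time limit all of these values.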
